A study of Mus musculus with 8 samples.

Results

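Hemidesmosome and basal adhesion genes encode the proteins by which keratinocytes hold on to the basement membrane. They were chosen by symbol, from the known parts of the hemidesmosome and its integrins, as Itga6, Itgb4, Itga3, Itgb1, Dst, Plec, Lama3, Lamb3 and Col17a1, and all 9 were found among the 18770 genes of the table. Messenger RNA had been sequenced from the dorsal skin of male wildtype C57BL/6 mice (C57BL/6J in the methods), labelled 7 to 8 weeks old, at day 4 after depilation. The vehicle control (VC) group received 20 µl of 65% ethanol on the skin, and the alpinetin (AP) group received alpinetin, a plant flavonoid, at 3 mg/ml in the same volume of 65% ethanol. Each group held 4 libraries, prepared from the dermis and its follicles once the keratinocytes of the epidermis between follicles had been taken off, and the comparison asks which genes differ when alpinetin is added to the vehicle. Libraries are numbered 1 to 4 within each group (VC.1, AP.1 and so on), and values are listed in that order. These numbers are not those of the sample titles, so no library was tied to a single mouse. No title marks a pool of animals, and the study's legend to its RNA-seq heat map gives 4 mice per group. The p-values below measure the spread between these samples.

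Reads on the listed genes came to 7264151, 6833615, 6479827 and 6454563 in the VC libraries and to 8507783, 10853773, 11190113 and 8863517 in the AP libraries. The 13 mitochondrially encoded genes took 54.3%, 44.9%, 42.1% and 52.3% of them in the VC libraries and 11.1%, 7.85%, 5.32% and 10.3% in the AP libraries. This share was 48.4% ± 5.81 in VC and 8.66% ± 2.63 in AP (SD, n = 4 each, two-sided exact permutation test, p = 0.0286, which is the lower limit for groups of 4). The groups therefore differed in depth and in the make-up of their reads. Reads were drawn down to an equal number, the 3080758 that VC.4 held outside the mitochondrial genes. On these, 7 of the 9 genes were called higher in limma (median log2 fold change 1.36), as were 6.18% of all genes. With libraries scaled by total counts without the mitochondrial genes, 6 were called (median 1.37), as were 5.99% of all genes. Other effects of the make-up of the reads were not tested. Levels are normalized counts, that is reads divided by the size factor of the library, and each log2 fold change is that of AP relative to VC, on log2(normalized count + 1).

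In the basal keratinocyte, the integrin pair of Itga6 and Itgb4 spans the membrane together with the collagen Col17a1, and the plakins Plec and Dst link them to keratin filaments of Krt5 and Krt14. Outside the cell they bind a laminin with the chains Lama3 and Lamb3, which anchoring fibrils of Col7a1 tie to the dermis. The integrin pair of Itga3 and Itgb1 binds the same laminin but connects to actin, and in the hair follicle these genes are known from the outer root sheath and the stem cells of the bulge.

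Of the 9 genes, 8 rose with alpinetin at an adjusted p under 0.05 in limma's moderated test, where 6.33% of the 15964 genes tested were higher. Lamb3 was the exception, and its value was also positive. Their median log2 fold change was 1.33, from 0.67 for Itgb1 to 1.92 for Itga6, against a median of 0.06 over all genes tested. In 6 of the 9, namely Itga6, Itgb1, Dst, Plec, Lama3 and Col17a1, every AP library lay above every VC library, as it did in 10.3% of the genes tested. With the cutoffs of the study's methods, a fold change over 1.5 and an unadjusted p under 0.01, applied here to limma's p-values in place of those of DESeq2 and after the filter on low values used here, 8 of the 9 were higher, as were 8.26% of the genes tested. None of the 9 was lower in limma, edgeR, DESeq2 or voom, also at an unadjusted p under 0.05. In limma, 4.0% of the genes tested were lower at an adjusted p under 0.05. The share of all genes at an unadjusted p under 0.05 was not counted, here or for the gene lists below. Summed over the 9 genes, the level was 5315, 9814, 9603 and 5263 in the VC libraries and 15038, 15229, 22121 and 22774 across the AP libraries. Whether the samples differed in the number of cells that make these transcripts or in the RNA per cell cannot be told apart in whole tissue.

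Several of these calls lay close to the threshold and depended on single libraries. Without AP.3 or AP.4, 2 of the 9 genes were called, Itga6 and Dst, and the share of all genes called higher was 1.34% and 1.63%. Without VC.1, 3 were called (3.69% of all genes), and without VC.4 or AP.2, 4 were called (4.63% and 2.45% of all genes). Without VC.1 and VC.4 together, the libraries with the largest mitochondrial share, 0 of the 9 passed in limma (1.35% of all genes), 7 of them had an unadjusted p under 0.05, and the median was 0.77. The share of all genes at that unadjusted p was not counted, so the 7 cannot be set against it. No other tool was run on those 6 libraries. With edgeR on the recovered reads 5 were called (6.28% of all genes), and all 9 were positive under each of the 24 alternatives, from 0.28 to 2.79. Scaling by total counts shifted the median of all genes by 0.84, and the median of the 9 genes lay 1.30 above that of all genes on this scale and 1.28 above it on the main scale. Such scaling moves all genes of a library alike, so this distance was bound to change little.

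**Figure D1:**
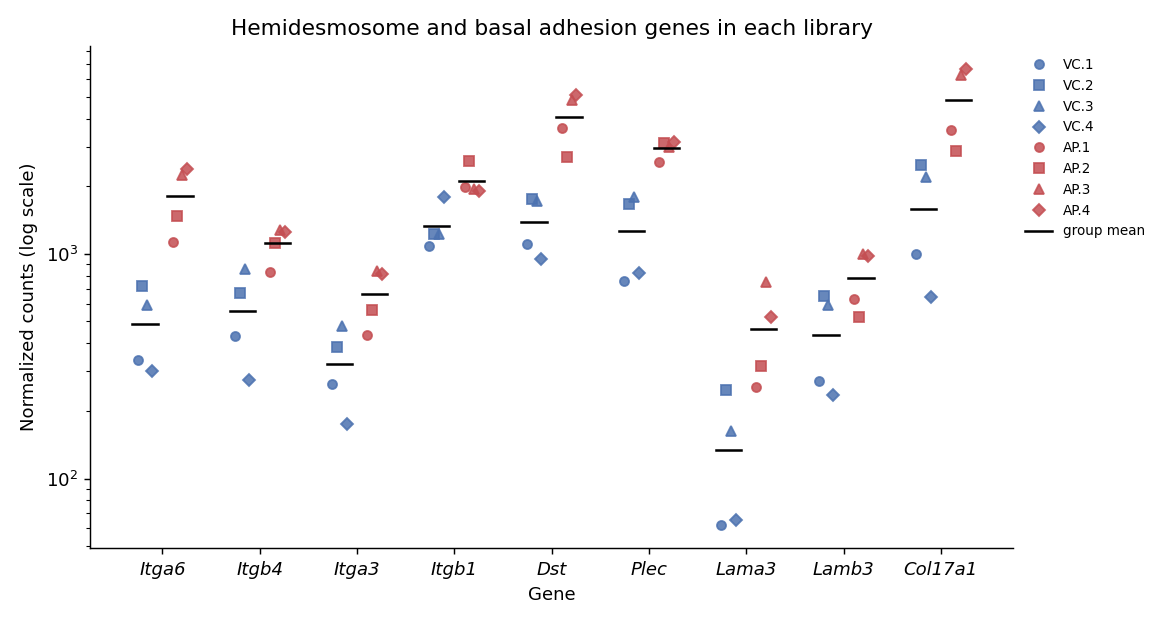
Normalized counts of the 9 hemidesmosome and basal adhesion genes in each library, on a log axis, with VC libraries in blue, AP libraries in red, a symbol for each library number and a black bar at the group mean (n = 4 each). The AP libraries lie above all VC libraries for Itga6, Itgb1, Dst, Plec, Lama3 and Col17a1 and overlap them for Itgb4, Itga3 and Lamb3.

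Among the integrin receptors, Itga6, which pairs with Itgb4 in the hemidesmosome, changed most. Itga6 (ENSMUSG00000027111, chr2:71745616-71858416 on the plus strand of mm10) had 337, 723, 591 and 302 normalized counts across the VC libraries and 1129, 1468, 2244 and 2380.3 across the AP libraries. The lowest AP library was 1.56 times the highest VC library, and the groups did not overlap. Its level was 488 ± 203 in VC and 1805 ± 604 in AP (SD, n = 4 each), and its log2 fold change was 1.92 with an SE of 0.31 (95% confidence interval 1.23 to 2.60, adjusted p = 0.00896 in limma), and it was called without each library in turn. Over the 24 alternatives its adjusted p ran from 3.39e-06 to 0.0507, and the highest came without VC.1 and VC.4.

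Itgb4, the partner chain whose long tail inside the cell binds Plec, changed less. Itgb4 (ENSMUSG00000020758, chr11:115974709-116008412, plus strand) had 431, 669, 855 and 276 normalized counts across the VC libraries and 829.7, 1115, 1272 and 1256 across the AP libraries. AP.1, the lowest AP library, lay below VC.3, the highest VC library, and the other AP libraries lay above all VC libraries. Itgb4 rose by 1.11 (SE 0.31, adjusted p = 0.0425 in limma), a call that was lost without VC.1, VC.4, AP.2, AP.3 or AP.4 (0.0669 to 0.118). Over all alternatives its adjusted p ran from 0.00192 to 0.169.

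Itga3, the chain that brings the other integrin pair to the same laminin, behaved in a similar way. Itga3 (ENSMUSG00000001507, chr11:95044474-95076801, minus strand) had 264, 384, 478 and 174 normalized counts across the VC libraries and 434, 559.7, 838 and 818 across the AP libraries. Here too AP.1 lay below VC.3, and AP.2, AP.3 and AP.4 lay above all VC libraries. Its log2 fold change of 1.07 (SE 0.31) passed with an adjusted p of 0.0499 in limma, the last of the calls among these genes, and failed without VC.1, VC.2, VC.4, AP.2, AP.3 or AP.4 (0.0545 to 0.142). Over all alternatives its adjusted p ran from 0.00207 to 0.236.

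Itgb1, the partner of Itga3 and of many other integrin chains in most cell types of skin, had the smallest change of the 9 genes. Itgb1 (ENSMUSG00000025809, chr8:128685654-128733200, plus strand) had 1082, 1229.5, 1229 and 1800.0 normalized counts across the VC libraries and 1992, 2579, 1942 and 1898 across the AP libraries. The groups were separated by a narrow gap, since AP.4 was 1.05 times VC.4, the highest VC library. It rose by 0.67 (SE 0.19, adjusted p = 0.0433 in limma), and the call was lost without VC.1, VC.2, VC.3, AP.1, AP.2, AP.3 or AP.4 (0.0544 to 0.116). Over all alternatives its adjusted p ran from 0.000569 to 0.116.

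Both plakins rose, and their groups did not overlap. Dst, whose epithelial form is the hemidesmosomal plaque protein and which has other forms in muscle and nerve, had 1111, 1753, 1723 and 947 normalized counts across the VC libraries and 3642, 2708, 4856 and 5093 across the AP libraries. The lowest AP library, AP.2, was 1.55 times the highest VC library, and VC.4 and VC.1 were the lowest of all. Dst (ENSMUSG00000026131, chr1:33908225-34308661, plus strand) rose by 1.56 on the log2 scale (SE 0.26, 95% confidence interval 1.0 to 2.13, adjusted p = 0.00896 in limma) and was called without each library in turn, with an adjusted p from 3.25e-06 to 0.0547 over the 24 alternatives. Plec, the plakin that binds the tail of Itgb4 and is made by many cell types, had 760.4, 1669.9, 1782 and 823 normalized counts across the VC libraries and 2571, 3103, 2994 and 3158 across the AP libraries. The AP libraries lay close together, within 1.23-fold of each other, and the VC libraries fell into a lower pair, VC.1 and VC.4, and a higher pair, VC.2 and VC.3. Plec (ENSMUSG00000022565, chr15:76170974-76232574, minus strand) rose by 1.33 (SE 0.27, adjusted p = 0.0173 in limma), a call lost without AP.3 or AP.4 (0.0520 to 0.0537), with a range from 0.000819 to 0.0551 over all alternatives. The Plec model shares 205 exon bases with Parp10 on the same strand, and reads from that stretch could have been given to either gene.

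Col17a1, the collagen that crosses the membrane of the basal cell and is known as a stem cell factor of the hair follicle, had 995, 2490.0, 2189 and 641 normalized counts across the VC libraries and 3556, 2857, 6233 and 6666 across the AP libraries. The order of the libraries was that of Dst, with VC.4 and VC.1 lowest and AP.3 and AP.4 highest, and AP.2 was 1.15 times the highest VC library. Col17a1 (ENSMUSG00000025064, chr19:47646344-47692094, minus strand) had 1579 ± 899 in VC and 4828 ± 1902 in AP (SD, n = 4 each), and it rose by 1.73 on the log2 scale (SE 0.42, adjusted p = 0.0298 in limma). The call was lost without VC.1, VC.4, AP.3 or AP.4 (0.0545 to 0.0912), and the adjusted p ran from 0.00161 to 0.141 over all alternatives.

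Of the laminin chains, Lama3 was called and Lamb3 was not. Lama3, the alpha chain that the integrins bind, had 61.8, 248, 162 and 65.6 normalized counts across the VC libraries and 257, 317, 749 and 525 across the AP libraries. VC.1 and VC.4 were the lowest, VC.2 nearly reached AP.1, and the groups were separated by a gap of 1.03-fold. Lama3 (ENSMUSG00000024421, chr18:12333819-12583013, plus strand) rose by 1.89 (SE 0.46, adjusted p = 0.0294 in limma), and the call was lost without VC.1, VC.4, AP.2, AP.3 or AP.4 (0.0547 to 0.0919), within a range from 0.00190 to 0.152 over all alternatives. Its VC values rested on 34 to 168 reads a library, the fewest of the 9 genes, and 197 of its exon bases are shared with the antisense gene Gm29200. Lamb3, the beta chain, had 273, 647, 594 and 234 normalized counts across the VC libraries and 628, 522, 994 and 979.9 across the AP libraries. Both groups were wide and overlapped, with AP.2 and AP.1 below VC.2. Lamb3 (ENSMUSG00000026639, chr1:193207699-193343878, plus strand) had a mean difference of 0.92 on the log2 scale (SE 0.34, 95% confidence interval 0.17 to 1.67, adjusted p = 0.0996 in limma), which missed the threshold and passed it under 1 of 24 alternatives, total counts (1.79, adjusted p = 0.00447, range 0.00447 to 0.553).

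**Figure D2:**
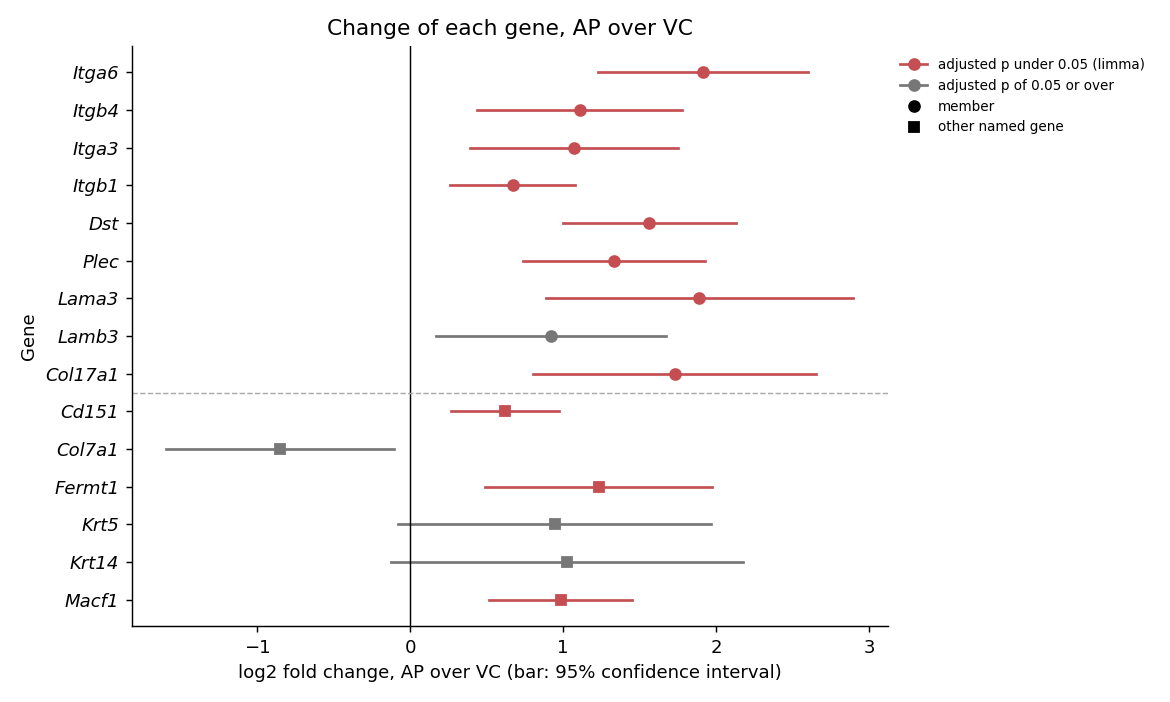
Log2 fold change of each gene, AP over VC (n = 4 libraries each), with its 95% confidence interval from limma as a bar, for the 9 members above the dashed line and for 6 other named genes under it. Red marks an adjusted p under 0.05, and Lamb3, Col7a1, Krt5 and Krt14 are grey.

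Levels can be compared between genes only per length, here as normalized counts per kilobase of the longest annotated transcript. In VC, Itgb1 (350.0 ± 83.2, SD, n = 4) and Col17a1 (283 ± 161) were the highest and Lama3 (12.8 ± 8.43) was the lowest. Between them lay Itga6 (113 ± 47.0), Itgb4 (89.8 ± 41.2), Lamb3 (89.8 ± 43.9), Plec (81.5 ± 35.1), Itga3 (66.9 ± 27.4) and Dst (59.4 ± 17.8), each less than 1 SD from its neighbour in this order. In AP the order began with Col17a1 (864 ± 340.4), Itgb1 (551 ± 83.9) and Itga6 (419 ± 140.1). Plec (191 ± 17.2), Itgb4 (180.1 ± 33.0), Dst (175 ± 47.7), Lamb3 (160.5 ± 49.7) and Itga3 (136 ± 40.7) followed, each less than 1 SD from its neighbour, and Lama3 (43.8 ± 21.2) was again the lowest. The 9 genes have long transcripts, with a median of 5588 nucleotides for the longest one, against 3171 over the genes tested. Across the 15962 genes with a length, which are not independent replicates, log2 fold change and length had a Spearman rho of 0.24. With the trend on length removed in each library, 2 of the 9 genes, Dst and Itga6, were called, against 4.17% of all genes, in 3 of the 9 every AP library lay above every VC library, against 9.26% of all genes, and the median was 0.93.

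Ratios of genes within a library do not depend on the scaling between libraries, and 18 of them were compared. The log2 ratio of Itgb4 to Itga6 was 0.36, -0.11, 0.53 and -0.13 in the VC libraries and -0.44, -0.40, -0.82 and -0.92 across the AP libraries. All AP libraries lay below all VC libraries, so relative to Itga6 there was less Itgb4 in each AP library. The difference was -0.81, from 0.16 ± 0.33 in VC and -0.65 ± 0.26 in AP (SD, n = 4 each, two-sided exact permutation test, p = 0.0286, adjusted p = 0.103 over 18 ratios). The ratio of Itga3 to Itga6 differed by -0.84 (exact p = 0.0286, adjusted p = 0.103) and was -0.35, -0.91, -0.31 and -0.79 in the VC libraries and -1.38, -1.39, -1.42 and -1.54 across the AP libraries. For the laminin chains, the log2 ratio of Lamb3 to Lama3 was 2.12, 1.38, 1.86 and 1.82 in the VC libraries and 1.29, 0.72, 0.41 and 0.90 across the AP libraries. The AP libraries again lay below every VC library (mean difference -0.97, exact p = 0.0286, adjusted p = 0.103). Over the 8 values with a library left out these differences ran from -0.90 to -0.68 for Itgb4 to Itga6, from -0.95 to -0.75 for Itga3 to Itga6 and from -1.12 to -0.83 for Lamb3 to Lama3. Of the 18 ratios, 0 had an adjusted p under 0.05 and 5 had the smallest exact p possible, 0.0286. With this limit no ratio could reach an adjusted p under 0.05 unless many of the 18 were at it. The lack of calls therefore does not show that a ratio was unchanged.

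Col17a1 to Itgb4 differed by 0.62 (exact p = 0.0571), with AP.2 inside the range of the VC libraries. Dst to its relative Macf1 differed by 0.58 (exact p = 0.143), Plec to Dst by -0.23 (exact p = 0.400), Itgb1 to Itgb4 by -0.44 (exact p = 0.514) and Itgb1 to Itga3 by -0.40 (exact p = 0.571). In each of these the groups overlapped. Without VC.4 the differences were 0.01 for Itgb1 to Itgb4 and 0.02 for Itgb1 to Itga3, and over the other single libraries left out they were lowest without VC.3 (-0.72 and -0.65). Plec to Dst ran from -0.44 without AP.2 to -0.14 without AP.3 or AP.4.

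The 9 genes were also set against Krt14, the keratin of the basal cell. Krt14 itself had 9490.1, 39471, 21021 and 9915 normalized counts across the VC libraries and 19368, 24856, 42588 and 65025 across the AP libraries, with wide and overlapping groups and no call (log2 fold change 1.02, SE 0.53, adjusted p = 0.212 in limma). The log2 ratio of Itga6 to Krt14 was -4.81, -5.77, -5.15 and -5.03 in the VC libraries and -4.10, -4.08, -4.25 and -4.77 across the AP libraries. Every AP library lay above every VC library, if narrowly for AP.4, and the groups differed by 0.89 (exact p = 0.0286, adjusted p = 0.103 over 18 ratios). Lama3 to Krt14 was -7.24, -7.31, -7.01 and -7.22 in the VC libraries and -6.23, -6.29, -5.83 and -6.95 across the AP libraries. The VC libraries were alike and all AP libraries lay above them, by 0.87 in the mean (exact p = 0.0286, adjusted p = 0.103). Col17a1 to Krt14 differed by 0.71 (exact p = 0.0857), Dst by 0.54 (exact p = 0.286) and Plec by 0.31 (exact p = 0.571), each with overlap. With single libraries left out, Plec to Krt14 ran from 0.07 (without VC.2) to 0.59 (without AP.4), with 0.11 without AP.1 and 0.14 without AP.2, and Dst to Krt14 from 0.26 (without VC.2) to 0.73, with 0.31 without AP.1. The differences of Itgb4 (0.09), Itga3 (0.05), Lamb3 (-0.10) and Itgb1 (-0.35) were smaller than the spread within each group, and their sign turned when single libraries were left out. Without VC.2 the difference was -0.20 for Itgb4 and -0.25 for Itga3. Without AP.1 or AP.2 it was -0.05 and -0.07 for Itgb4 and -0.04 for Itga3 in both cases. For Itgb1, leaving out VC.4 gave 0.05 and leaving out AP.4 gave 0.005, and for Lamb3 leaving out AP.4 gave 0.08.

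**Figure D3:**
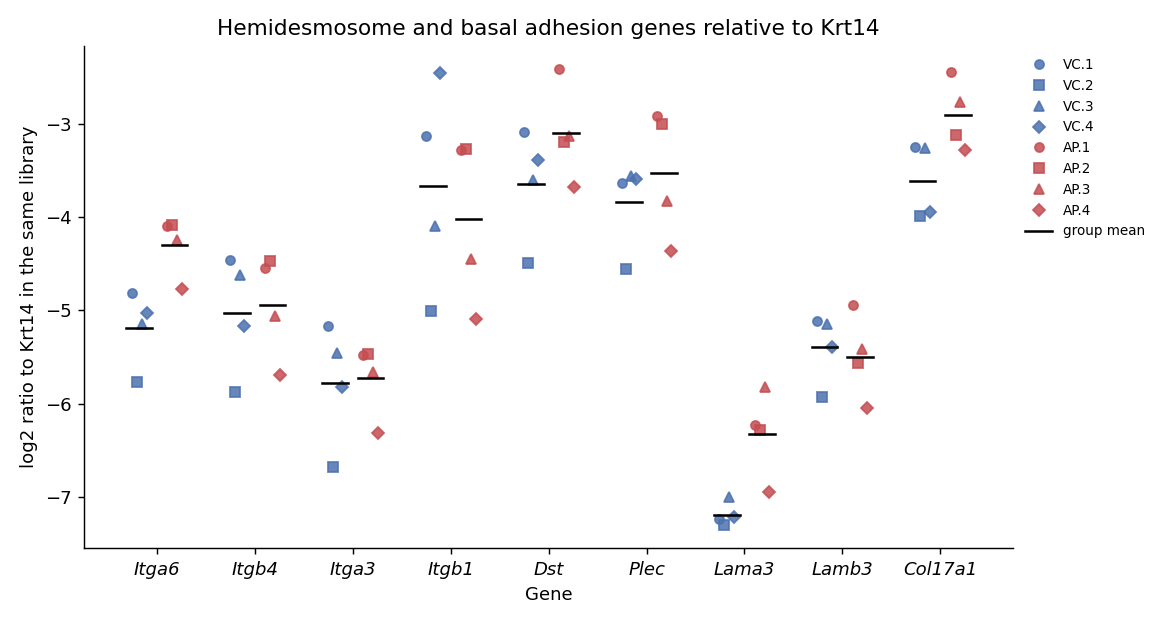
Log2 ratio of each of the 9 genes to Krt14 in the same library, VC in blue and AP in red, with a black bar at the group mean (n = 4 each). The AP libraries lie above all VC libraries for Itga6 and Lama3 and overlap them for the other genes.

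Of 5 other genes of the hemidesmosome, its anchors and integrin adhesion, 2 rose in limma, 0 fell and 3 were not called, with a median of 0.94. For a fall, 1 of them had an unadjusted p under 0.05, Col7a1, which was lower by DESeq2 and not by edgeR or voom. The 2 rises became 1 without VC.2 or VC.3 and 0 without VC.1, VC.4, AP.2, AP.3 or AP.4. Cd151, a tetraspanin that binds both laminin integrins, rose by 0.62 (SE 0.16, adjusted p = 0.0356) with no overlap, and the call was lost without VC.1, VC.2, VC.3, VC.4, AP.2, AP.3 or AP.4 (0.0546 to 0.0969). Fermt1, an integrin activator of keratinocytes, rose by 1.23 (SE 0.34, adjusted p = 0.0421), a call lost without VC.1, VC.4, AP.2, AP.3 or AP.4 (0.0517 to 0.134). Krt5, the partner of Krt14, had 19192 ± 10722 in VC and 36172 ± 18356 in AP (log2 fold change 0.94, SE 0.47, adjusted p = 0.196).

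Col7a1, the collagen of the anchoring fibrils, went the other way. It had 631, 962, 1339.5 and 2503 normalized counts across the VC libraries and 625, 544, 832 and 679 across the AP libraries. The highest AP library, AP.3, was lower than VC.2, VC.3 and VC.4 but above VC.1, so the groups overlapped. The difference was -0.85 on the log2 scale (SE 0.34, adjusted p = 0.120 in limma), not called, and ran from -1.16 without VC.1 to -0.50 without VC.4. With DESeq2 on the recovered reads it passed at -1.02 (adjusted p = 0.0355), and under total counts it was 0.019, within a range of adjusted p from 0.0355 to 0.967.

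Of 21 other basement membrane genes, 3 rose and 0 fell (median 0.54), namely Col4a6, Col4a5 and Lamc1, and Egflam, Frem1 and Lamc3 were the 3 with negative values, none of them called. Lamc1, the gamma chain of most other laminins, had 727 ± 149 in VC and 1662 ± 564 in AP (log2 fold change 1.15, SE 0.24, adjusted p = 0.0175 in limma) and was called without each library in turn, but the list had 1 call without AP.2, AP.3 or AP.4. For a fall, 0 of the 21 had an unadjusted p under 0.05 in limma, edgeR, DESeq2 or voom. For a rise, 7 did in limma and 8 in edgeR, DESeq2 and voom each, and DESeq2 called 5. Lama1 was listed at 0 in at least 1 library. Of 22 other integrin genes tested, 1 rose, Itgav (log2 fold change 1.26, SE 0.33, adjusted p = 0.0352, lost without VC.4, AP.2, AP.3 or AP.4 (0.0613 to 0.104)), and the median was 0.15. Without VC.4, 2 others were called, Itgae and Itga8. Of the 22, 0 fell in limma, edgeR, DESeq2 or voom, and 1 was lower at an unadjusted p under 0.05 (2 in DESeq2). At that unadjusted p, 7 were higher in limma and DESeq2 each, 6 in edgeR and 4 in voom. DESeq2 called 2 higher, Itga8 and Itgav. Itgb5, the one with the most counts in the mean of the 8 libraries, had 708 ± 160.2 in VC and 794 ± 63.6 in AP (log2 fold change 0.19, SE 0.17, adjusted p = 0.489). With single libraries left out, its log2 fold change ran from 0.08 to 0.32. Itgad was listed but did not pass the filter on low values, and its value was 0 in at least 1 library. Of 24 focal adhesion genes, which link integrins to actin, 5 rose and 0 fell (median 0.13), with Vcl (log2 fold change 1.52, SE 0.22, adjusted p = 0.00645) and Kank1 (log2 fold change 1.18, SE 0.19, adjusted p = 0.00884) called without each library in turn. This list had 2 calls without AP.3 and 3 without AP.2 or AP.4. For a fall, 4 of the 24 had an unadjusted p under 0.05, 0 passed in edgeR or voom and 2 passed in DESeq2. For a rise, 8 had an unadjusted p under 0.05 in limma, edgeR and voom each and 9 in DESeq2, which called 7.

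The 4 other plakins tested, Dsp, Evpl, Ppl and Macf1, all rose (median 1.28), with 1 call left without VC.1, AP.3 or AP.4 and 2 without VC.4 or AP.2. Without VC.1 and VC.4 together, 0 were called in limma, though all 4 had an unadjusted p under 0.05. Dsp, the plakin of desmosomes, had 1868, 3309, 2276 and 1208 normalized counts across the VC libraries and 6535, 8179, 16334 and 19681 across the AP libraries. Its groups did not overlap and the gap was wide (log2 fold change 2.49, SE 0.38, adjusted p = 0.00843), and it was called without each library in turn. Macf1, which joins microtubules to actin and is the closest relative of Dst, rose by 0.98 (SE 0.21, adjusted p = 0.0209), a call lost without VC.1, AP.2, AP.3 or AP.4 (0.0515 to 0.0679).

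Of 7 basal keratinocyte markers, 1 rose (Bcl11b, log2 fold change 1.13, SE 0.28, adjusted p = 0.0330, lost without VC.1, VC.4, AP.3 or AP.4 (0.0613 to 0.104)) and 0 fell, also at an unadjusted p under 0.05 in limma, edgeR, DESeq2 or voom, with a median of 0.77. Of 12 suprabasal markers, 11 rose (median 2.96), 9 to 12 were called without each library in turn, and 3 without VC.1 and VC.4 together. Krt10, the one of them with the most counts over the 8 libraries, had 1302, 4085, 2280.3 and 1838 normalized counts across the VC libraries and 15852, 17528, 47444 and 73322 across the AP libraries. Transcripts of suprabasal markers were thus counted in all 8 libraries, whose labels describe skin without interfollicular epidermis, and none of the 12 was at 0 in a library. The summed level of the 12 was 6576, 13867, 9469 and 6251 in the VC libraries and 45506, 43776, 127412 and 179153 across the AP libraries. Of 9 genes listed for keratinocytes of any layer, most of them junction genes, 6 rose (median 1.20). Of these, 3 calls were left without AP.3 or AP.4 and 1 without VC.1 and VC.4 together. Among them, Dsg3 (log2 fold change 3.24, SE 0.41, adjusted p = 0.00360) rose most. Their sum, with Perp having the most counts in each library, was 11547, 14977, 11897 and 6848 in the VC libraries and 16956, 21296, 39097 and 44092 across the AP libraries. The part of the keratinocyte content of a sample in the changes of the 9 genes was not tested.

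Of 9 follicle stem cell markers, 0 were called in limma, and 3 had an unadjusted p under 0.05, 1 higher and 2 lower. At an adjusted p under 0.05, 1 of the 9, Tbx1, was lower by edgeR, DESeq2 and voom each. Krt15, their most abundant gene, had 4351 ± 1107 in VC and 5571 ± 2424 in AP (log2 fold change 0.25, SE 0.36, adjusted p = 0.675), and the median was 0.25. With single libraries left out, the log2 fold change of Krt15 ran from 0.05 to 0.65. The summed level of the 9 was 8661, 7313, 9256 and 6101 in the VC libraries and 9990.0, 5574, 11227 and 9867 across the AP libraries, and without VC.4 Tbx1 was lower in limma too.

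Other cell types use some of the same genes, Itga6 in endothelium and Itga6 and Itgb4 in Schwann cells among them. Of 8 endothelial markers, 2 rose, Cdh5 and Pecam1 (median 1.41), and the sum, with Pecam1 having the most counts in each library, was 989.6, 1065, 1815 and 2070.0 in the VC libraries and 3013, 6561, 2578 and 2783 across the AP libraries. At an unadjusted p under 0.05, 7 of the 8 were higher in limma, edgeR, DESeq2 and voom each, while DESeq2 called 5 and edgeR and voom 2 each. Pecam1 had 416 ± 106 in VC and 1214 ± 687 in AP (log2 fold change 1.44, SE 0.31, adjusted p = 0.0198) and was called without each library in turn, while the list had 1 call without VC.1, VC.2, AP.2, AP.3 or AP.4, 3 without VC.3 and 5 without VC.4. Of 7 Schwann cell markers, 2 fell and 0 rose, by limma, edgeR, DESeq2 and voom each, and for a rise 2 had an unadjusted p under 0.05 in limma (median -0.34). S100b, the one that fell most, had 98.0 ± 14.1 in VC and 30.6 ± 11.0 in AP (log2 fold change -1.71, SE 0.33, adjusted p = 0.0149) and was called without each library in turn, and Mbp differed by -0.91 (SE 0.23, adjusted p = 0.0320), a call lost without VC.2, VC.4, AP.2, AP.3 or AP.4 (0.0593 to 0.101). With total counts, both calls were lost in limma (S100b -0.86, adjusted p = 0.0617, and Mbp -0.04, adjusted p = 0.898). The sum of the Schwann cell list, in which Mbp had the most counts over the 8 libraries but not in any AP library, was 2936, 5256, 4214 and 4429 in the VC libraries and 6132, 4849.9, 3006 and 3713 across the AP libraries. Of 6 smooth muscle markers, 2 rose, Myh11 and Acta2 (median 0.91), with 1 call without VC.1, VC.2, AP.2 or AP.4, 3 without AP.3 and 1 gene lower without AP.1. Myh11, also made around vessels and in the muscle of the hair, rose by 2.76 (SE 0.30, adjusted p = 0.00231). DESeq2 called 3, and at an unadjusted p under 0.05 4 were higher in each of the 4 tools and 1 lower in limma and voom. The smooth muscle sum, in which Des had the most counts over the 8 libraries and Acta2 in AP.2, AP.3 and AP.4, was 4231, 6541, 4862 and 5304 in the VC libraries and 8669, 7359, 3011 and 4419 across the AP libraries.

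The 8 fibroblast markers, with the most counts in Col1a1 in the mean of the 8 libraries and Col3a1 in that of VC, summed to 121488, 81981, 83539.8 and 223757 in the VC libraries and 255099, 189578, 136652 and 98434 across the AP libraries. None was called in limma, edgeR or voom, and 2 had an unadjusted p under 0.05 in limma, 1 higher and 1 lower. DESeq2 called 1 lower, the median was 0.28, and without AP.1 1 was lower in limma. The 8 skeletal muscle markers, with Acta1 having the most counts in each library, summed to 53639, 79375, 40607 and 42767 in the VC libraries and 80347, 10126, 6058 and 12688 across the AP libraries. All 8 had negative log2 fold changes in limma (median -1.78), though the AP means of Myh1 and Myh4 were above those of VC. At an unadjusted p under 0.05 there were 6 in limma and voom each and 0 in edgeR and DESeq2, and 0 were called in limma, edgeR, DESeq2 or voom, but 8 were lower without AP.1. The 7 leukocyte markers, with Csf1r having the most counts in each library, summed to 2905, 1964, 2002 and 4808 in the VC libraries and 2669, 2134, 1739 and 1756 across the AP libraries. In limma 0 were called and 3 had an unadjusted p under 0.05, 1 higher and 2 lower (median -0.38). DESeq2 called 1 lower, edgeR and voom called 0, and without VC.2 1 was lower in limma. The 6 adipocyte markers, with the most counts in Car3 except in AP.3 and AP.4, summed to 29938, 11547, 12689 and 20016 in the VC libraries and 18143, 27581, 11902 and 9986 across the AP libraries. Of these 6, 1 was higher at an unadjusted p under 0.05 in limma, and 0 were called by limma, edgeR, DESeq2 or voom (median -0.05). No marker of these lists was at 0 in a library. The part of these cell types in the changes of the 9 genes was not tested.

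Within each group, 8 of the 9 genes, all but Itgb1, lay below their group mean in VC.1, VC.4 and AP.1 and above it in VC.2, VC.3, AP.3 and AP.4, while their order within these sets differed. As deviations from the group mean of log2(normalized count + 1), the mean of the 9 genes was -0.43, 0.55, 0.49 and -0.60 in the VC libraries and -0.37, -0.24, 0.32 and 0.29 in the AP libraries. VC.4 was the lowest VC library for 6 of the 9 genes and VC.1 for the other 3, and AP.1 was the lowest AP library for 5. Itgb1 went against this order, being highest in VC.4 and AP.2. Over the 8 libraries, the deviations of a gene and of the mean of the 9 had a Pearson r of 0.980 for Lamb3, 0.972 for Itga6, 0.970 for Col17a1, 0.961 for Lama3, 0.943 for Itga3, 0.916 for Dst, 0.915 for Itgb4, 0.890 for Plec and -0.472 for Itgb1. These are descriptions of 8 points that share libraries and scaling, and each gene is part of the mean. Krt14 had an r of 0.921, Krt5 0.915 and Col1a1 -0.897, and the fibroblast sum was largest in VC.4 and AP.1, where most of the 9 genes were lowest.

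**Figure D4:**
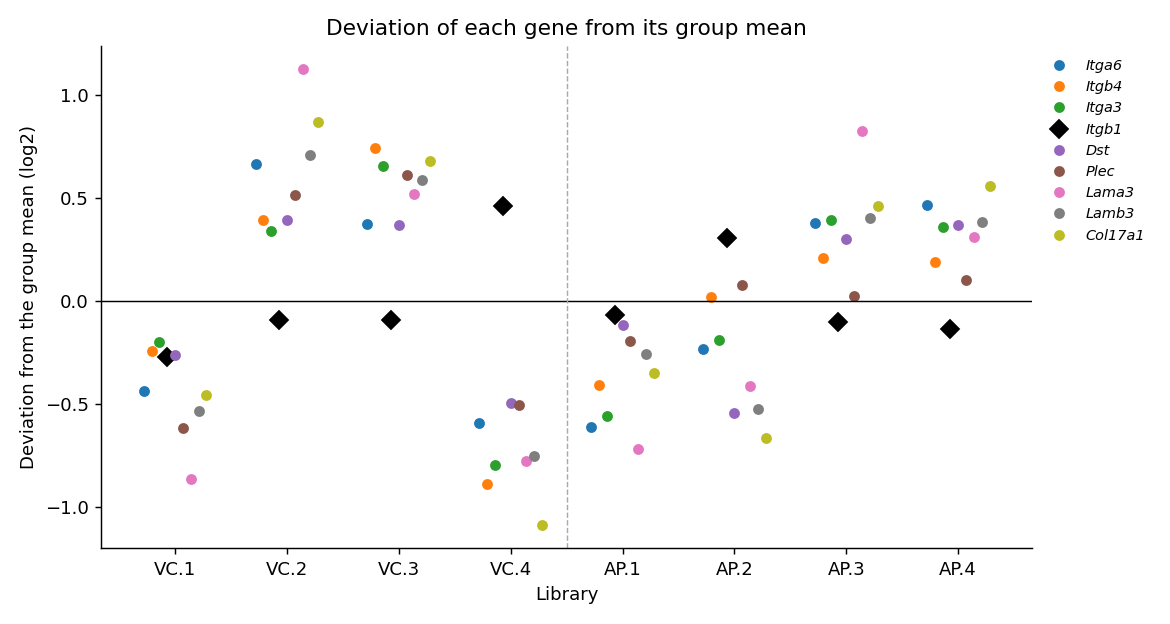
Deviation of each of the 9 genes from its group mean on the log2 scale, per library, with Itgb1 as a black diamond and the groups divided by a dashed line. The other genes lie below 0 in VC.1 and VC.4 and above 0 in VC.2, VC.3, AP.3 and AP.4, while Itgb1 is above 0 in VC.4 and AP.2.

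Among 11248 genes with a mean of at least 50 normalized counts, the deviations most like those of the 9 genes were found for Scfd2 (r = 0.997), Fcgbp (0.990), Moxd1 (0.986), Irx4 (0.983) and Itpr3 (0.982), over 8 libraries. In limma only Itpr3 was called, and Moxd1 passed in 4 of the 24 alternatives, DESeq2 among them. Itpr3 rose (log2 fold change 1.56, SE 0.28, adjusted p = 0.0115 in limma), and Irx4 had 132 ± 51.0 in VC and 134 ± 26.7 in AP (log2 fold change 0.09, SE 0.30, adjusted p = 0.858).

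The stretches before the starts of the genes were searched for 3 short motifs on both strands. RefSeq promoters (GRCm38.p6) were given for 5 of the 9 genes, Dst, Lamb3, Itgb1, Itga3 and Col17a1, as 8 starts, and Itga6, Itgb4, Plec and Lama3 had no entry. In the 250 bases before each start, the AP-1 motif TGANTCA was in 0 of the 8, the GC box GGGCGG in 4 and the TATA box TATAAA in 1. Of these 8 windows, 4 still held bases of annotated exons. Of all 32851 promoters, 6.75% held the AP-1 motif, 32.7% the GC box and 12.4% the TATA box. The data do not show which start was used. The sequences below are shown for the 2 genes with the most GC boxes, for the gene with the TATA boxes and for Itgb1, the gene with the negative r, each in the direction of its gene, up to the first annotated exon, with the matches in capitals. Dst and Itga3 each had a second start that is not shown. That of Dst (chr1:34160010-34160259) held 0 matches, and that of Itga3 (chr11:95069199-95069448) held 1 GC box. The Dst stretch shown (chr1:34011345-34011594, plus strand) lies inside the Dst locus in an intron of its longer forms and holds 4 GC boxes. Whether it belongs to the epithelial form was not determined. The Itga3 stretch (chr11:95076802-95076964, minus strand) holds 2 GC boxes, the Itgb1 stretch (chr8:128685404-128685653, plus strand) holds 1 GC box, and the Col17a1 stretch (chr19:47692095-47692292, minus strand) holds 2 TATA boxes.
Dst: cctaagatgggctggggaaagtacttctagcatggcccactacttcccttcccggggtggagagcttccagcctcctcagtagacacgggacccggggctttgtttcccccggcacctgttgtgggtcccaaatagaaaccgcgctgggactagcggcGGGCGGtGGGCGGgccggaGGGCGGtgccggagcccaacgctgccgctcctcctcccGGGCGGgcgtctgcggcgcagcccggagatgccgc
Itga3: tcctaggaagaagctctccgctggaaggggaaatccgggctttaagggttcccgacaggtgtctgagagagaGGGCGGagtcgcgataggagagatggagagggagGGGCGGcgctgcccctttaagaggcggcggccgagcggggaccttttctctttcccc
Itgb1: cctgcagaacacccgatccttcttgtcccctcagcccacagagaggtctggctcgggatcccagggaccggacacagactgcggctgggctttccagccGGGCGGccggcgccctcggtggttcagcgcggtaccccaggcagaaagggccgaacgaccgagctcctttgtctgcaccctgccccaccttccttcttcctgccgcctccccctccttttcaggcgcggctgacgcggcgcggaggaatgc
Col17a1: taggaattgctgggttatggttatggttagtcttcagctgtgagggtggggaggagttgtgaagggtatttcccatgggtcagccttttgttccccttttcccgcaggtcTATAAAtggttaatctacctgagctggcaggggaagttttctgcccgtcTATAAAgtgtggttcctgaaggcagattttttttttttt
A match says only that these letters are present, and no binding was measured.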

How the data were processed

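Per the deposited processing notes, the authors aligned reads to mm10 with STAR and scaled and compared counts with DESeq2 (versions not stated). Their methods name featureCounts for counting and their notes name HTSeq. The deposited signal values are normalized counts, and dividing each column by its smallest step recovered whole reads in 150160 of 150160 values (tolerance 0.05 reads). The table also holds the authors' mean, log2 fold change, standard error, statistic, p-value and adjusted p, which were not used.

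The test covered the 15964 of 18770 genes that reached 3 normalized counts in 4 or more of the 8 libraries, with limma 3.58.1 (R 4.3.3, intensity trend, moderated test) on log2(normalized count + 1), with Benjamini-Hochberg adjustment over all of them and a threshold of 0.05. Alternatives used edgeR 4.0.16, DESeq2 1.42.0 and voom on recovered reads, other scaling, pseudocounts, filters and left-out libraries, 24 in all, of which leaving out VC.1 and VC.4 together and DESeq2 with the deposited factors were added after the files had been seen. Ratios and the mitochondrial share were compared by two-sided exact permutation over 70 assignments (Python 3.11.15, scipy 1.17.1). Gene positions and lengths came from GENCODE M21, which held 18766 of the 18770 identifiers. A depth of 3 reads corresponds to 4.10 to 5.63 normalized counts in the VC libraries and to 1.49 to 2.18 in the AP libraries.

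The members and the 16 lists were chosen with earlier results of these data known, and some genes and 1 of the 18 ratios are not reported here. Named genes are the 9 members, Cd151, Col7a1, Fermt1, Krt5, Krt14 and Macf1, the most abundant gene of each list, up to 4 called genes per list and direction by largest change, markers at 0, and the 5 genes of highest likeness. Egflam, Frem1, Lamc3, Itgae, Itga8, Tbx1, Myh1, Myh4 and Col3a1 were named after their values had been seen. Promoters were to be searched over 300 bases, and the search was cut to the 250 before the RefSeq start, a window that in 4 of 8 cases still held bases of GENCODE exons.

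Each tool was tested on simulated data in which 200 genes had been changed. At a log2 fold change of 1, limma recovered 37 of 100 with 7 false calls in the whole table, edgeR 35, DESeq2 60 with 29 false calls and voom 30, and at 2 they recovered 95, 99, 100 and 97.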

Additional observations from a re-analysis of the deposited data

Results flagged for a closer look

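Of 148 groups of 4 libraries checked with Dixon's test at its 95% critical value, 9 (6.08%) held a library far from the other 3, and chance flags about 1 in 20 groups. AP.2 was far above the other AP libraries for Itgb1 (2579 normalized counts), Cd151 (1012), Cdh5 (1373) and Pecam1 (2244), and far below them for the log2 ratio of Dst to Macf1 (0.41). AP.1 was far above the other AP libraries for the muscle genes Acta1 (20882) and Des (4765) and far below them for Actn4 (2486). Among the VC libraries, VC.2 was far below the rest for the log2 ratio of Plec to Krt14 (-4.56). The flags of AP.2 included genes of endothelium, and those of AP.1 included genes of muscle. Whether these libraries differed in the tissue they held or the animals differed was not tested.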

How the results depend on the processing

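The direction of all 9 members held under every alternative, and the calls did not. Against 1011 genes higher and 639 lower with 8 members called, the counts were 8657 and 70 with total counts (members' median 2.20, 99.2% of calls higher against 61.3%), 1677 and 1362 with DESeq2, 1675 and 1362 with DESeq2 on the deposited factors, 376 and 216 with 2 members in limma without trend, and 666 and 364 with 2 members called and 3 without overlap after removal of the length trend. With edgeR 5 members were called, and with voom 49.7% of calls were higher. Leaving out 1 library at a time gave 211 to 1061 genes higher and 96 to 812 lower, 2 to 7 members called, 6 to 8 members without overlap (10.9% to 15.3% of all genes, against 10.3%), a members' median of 1.13 to 1.54 and a difference in mitochondrial share of -41.9 to -37.8 points. The smallest counts came without AP.3 (211 and 96), AP.4 (257 and 147), AP.2 (385 and 155) and VC.1 (584 and 255). Without VC.1 and VC.4 there were 211 and 82 genes, 0 members called and a members' median of 0.77. Log2 fold changes of genes that changed sign were Col7a1 (0.019), Csf1r (0.72) and Car3 (0.38) with total counts, Csf1r without VC.4 (0.15, from -0.33 over single libraries left out) and without VC.1 and VC.4 (0.36), and Irx4 without VC.1 (-0.02), without VC.4 (-0.12, up to 0.28 without others) and without both (-0.40). Fewer libraries lower the power of the test, and otherwise the cause was not tested. Over all values and alternatives, 1347 stayed on their side, 191 no longer passed, 18 newly passed, 43 moved and 8, the log2 fold changes above, changed sign. The ratios of Itgb4, Itga3, Itgb1 and Lamb3 to Krt14 and of Itgb1 to Itgb4 and Itga3 also crossed 0 with single libraries left out, and none of these had been called. No paired analysis was possible because the columns carry no mouse numbers shared between the groups. With 4 libraries a group, the smallest exact p is 0.0286. VC libraries held fewer reads outside the mitochondrial genes (mean 3478050) than AP libraries (9026440).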
